A study of Mus musculus with 12 samples.

Results

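The orosomucoid family was followed through 4 groups of mouse hepatocyte libraries. Its members are Orm1, Orm2 and Orm3, the genes carrying these symbols in the deposited table, 3 of its 15910 genes, and all 3 were among the 12631 genes tested. All mice were female Balb/c and 8 weeks old. The groups were mice with 4T1 cells, a mouse mammary carcinoma line, placed orthotopically and taken at day 4 (replicates 1, 2 and 3), PBS-injected mice of day 4 (4, 5 and 6), tumour mice of day 21 (7, 8b and 9a) and PBS-injected mice of day 21 (10a, 11a and 12b). Each group held 3 mice and each mouse gave 1 library of polyA RNA from dissociated hepatocytes of a perfused liver. No genotype or drug was labelled, and tumour size was not given in the sources used here.

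Orosomucoid, also called alpha-1-acid glycoprotein, is a small, heavily N-glycosylated plasma protein of the lipocalin fold that binds basic drugs and other lipophilic ligands. Hepatocytes secrete it, and its synthesis rises in the acute-phase response, the change in plasma protein output that follows inflammation or injury. In rodent liver IL-1, IL-6 and glucocorticoids drive its transcription, and the C/EBP factors, the glucocorticoid receptor and STAT3 are the regulators usually named. Mice carry a tandem cluster of orosomucoid genes of the same structure.

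The 3 genes lie head to tail on the plus strand of chromosome 4 within 21319 bases (GRCm38 chr4:63344560-63365878, GENCODE M21), each with 6 exons. Orm1 (ENSMUSG00000039196, chr4:63344560-63348163) comes first, Orm3 (ENSMUSG00000028359, chr4:63356162-63359511) follows after 7998 bases, and Orm2 (ENSMUSG00000061540, chr4:63362449-63365878) after a further 2937. The promoters of Orm3 and Orm2 are shown because both genes rose by more than Orm1 at day 21 and the RefSeq table held these 2 of the 3 members. They are the 250 bases before the RefSeq start on the plus strand (GRCm38.p6), chr4:63355908-63356157 for Orm3 and chr4:63362199-63362448 for Orm2. Capitals mark matches to the motifs named below.
Orm3 promoter: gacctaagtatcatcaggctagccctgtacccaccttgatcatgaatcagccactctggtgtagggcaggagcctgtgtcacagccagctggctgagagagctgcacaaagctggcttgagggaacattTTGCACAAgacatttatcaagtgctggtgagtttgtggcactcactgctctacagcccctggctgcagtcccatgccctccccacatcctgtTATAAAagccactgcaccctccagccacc
Orm2 promoter: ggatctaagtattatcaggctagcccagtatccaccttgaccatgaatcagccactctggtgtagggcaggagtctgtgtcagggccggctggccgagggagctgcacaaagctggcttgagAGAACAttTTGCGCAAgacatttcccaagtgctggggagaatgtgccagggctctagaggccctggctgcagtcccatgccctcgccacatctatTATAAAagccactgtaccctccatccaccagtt
The windows were identical at 218 of 245 aligned bases (88.98%), with a longest shared run of 32 bases. Each held 1 match to the C/EBP letters TTGCNNAA, read on both strands, which is TTGCACAA in Orm3 at 121 to 114 bases before the start and TTGCGCAA in Orm2 at 120 to 113. TTGCNNAA occurred in 9.56% of 32851 promoter windows of the same length. The glucocorticoid receptor half-site letters AGAACA matched in Orm2, 128 to 123 bases before the start, and not in Orm3, against 16.1% of all windows. TATAAA, the TATA box, began 29 bases before the start in Orm3 and 33 in Orm2 (12.4% of windows). The STAT letters TTCNNNGAA and the IL-6 type 2 letters CTGGGAA matched neither window, against 7.02% and 9.10% of windows. No match overlapped another, and the motifs were chosen with the sequences in view, so the matches only describe the letters.

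Depth ran from 9375095 reads in tumour day 21 replicate 8b to 21809166 in PBS day 21 replicate 11a, and a member had between 56 and 28713 reads in a library. One tumour library of day 21, replicate 7, correlated least with the others over all genes (median 0.83), against 0.926 and 0.937 for 8b and 9a and 0.961 to 0.973 for the rest. Limma called 684 higher and 308 lower of the 12631 tested genes at day 21. All 12 hepatocyte-defining genes were detected in every group, and limma called 0 of them at day 21 (3 at a raw p under 0.05). The edgeR fit called 1 of these 12 and DESeq2 2. Limma called 1 with a pseudocount of 5, with TMM scaling, or without tumour day 4 replicate 2 or 3 or tumour day 21 replicate 9a. Their summed normalized count was 1532000 to 2068000 in tumour and 2067000 to 2515000 in PBS mice of day 21, and 2411000 to 2892000 in tumour and 2314000 to 3442000 in PBS mice of day 4. In bulk RNA, fewer cells of a type and less RNA per cell cannot be told apart.

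The transcripts of the members resemble each other, which bears on how reads could be assigned. Over the aligned mRNA, Orm2 and Orm1 were 90.97% identical, Orm3 and Orm2 88.47%, and Orm3 and Orm1 86.53%. Of the 50-base windows of each mRNA, 20.4% of Orm1, 21.8% of Orm2 and 3.59% of Orm3 occurred unchanged in another member. A further 0.964% of the Orm2 windows occurred in the neighbouring pseudogene Gm11212, which was not analysed here. How shared reads were counted is not given in the sources used here, so the levels of Orm1 and Orm2 carry that uncertainty.

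In every one of the 12 libraries Orm1 was the highest member, Orm2 the second and Orm3 the lowest. The mRNAs are 775, 775 and 773 bases long, so their levels can be compared on the RPKM scale, reads corrected for mRNA length and library depth. On that scale Orm1 averaged 1124 ± 229 in tumour and 705 ± 196 in PBS mice of day 4 (SD, n = 3 each), and 2291 ± 1087 in tumour and 674 ± 84.0 in PBS mice of day 21. Its mean ranked 25th among 15892 genes in tumour mice of day 21 and 65th in PBS mice of the same day.
Orm2 averaged 80.5 ± 23.0 in tumour and 37.2 ± 30.8 in PBS mice of day 4, and 791 ± 518 in tumour and 46.2 ± 26.9 in PBS mice of day 21, with rank 61 in tumour and 873 in PBS mice of day 21. Orm3 averaged 19.6 ± 4.46 in tumour and 7.63 ± 2.69 in PBS mice of day 4, and 47.3 ± 19.1 in tumour and 5.70 ± 2.35 in PBS mice of day 21, with rank 790 in tumour and 4517 in PBS mice of day 21. Neighbours in this order lay further apart than the SD of the higher one in every group except Orm2 and Orm3 in PBS mice of day 4, where Orm2 was still the higher in each of the 3 libraries. Together the 3 genes took 0.0948% ± 0.0197 of all reads in tumour and 0.0581% ± 0.0177 in PBS mice of day 4, and 0.243% ± 0.125 in tumour and 0.0563% ± 0.00862 in PBS mice of day 21.

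At day 21 the hepatocyte libraries of tumour mice held more transcript of all 3 orosomucoid genes than those of PBS mice, without overlap between the groups. The changes differed in size, with Orm2 up 17-fold, Orm3 8.04-fold and Orm1 3.13-fold. The comparison asks what an established tumour elsewhere in the body goes with in liver cells. All levels here are normalized counts, the authors' counts per gene after scaling by a factor for each library, and folds come from limma on log2(value + 1). A gene was called when its adjusted p over all tested genes was under 0.05.

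Orm1, the main orosomucoid transcript, had 15667, 42604 and 21917 normalized counts in tumour replicates 7, 8b and 9a, against 7977, 6958 and 8599 in PBS replicates 10a, 11a and 12b. The lowest tumour library was 1.82 times the highest PBS library, and 8b, the shallowest library, was the highest of the series. The log2 fold change was 1.65 (SE 0.31, 95% interval 0.97 to 2.32, limma adjusted p = 0.00786). Orm2 had 5509, 16779 and 5452 normalized counts in tumour replicates 7, 8b and 9a, against 554, 224 and 826 in PBS replicates 10a, 11a and 12b. The lowest tumour library was 6.60 times the highest PBS library. Its log2 fold change was 4.08 (SE 0.61, 95% interval 2.73 to 5.44, limma adjusted p = 0.00377), with the widest interval of the 3 genes. Orm3, the least abundant member, had 413, 833 and 393 normalized counts in tumour replicates 7, 8b and 9a, against 98.5, 49.8 and 50.9 in PBS replicates 10a, 11a and 12b. The groups lay 3.99 times apart at their nearest libraries. Its log2 fold change was 3.01 (SE 0.34, 95% interval 2.26 to 3.75, limma adjusted p = 0.000553), and its p was the 25th smallest of all genes tested.

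So 3 of 3 members were called higher, where 5.42% of all tested genes were, and 3 of 3 had tumour libraries all above PBS libraries, where 17.2% of genes did. None of the members entered the test through the tumour libraries alone, since no library held fewer than 49.8 normalized counts of any of them. Every member was called higher in each of the 21 other fits and subsets run, with log2 fold changes of 1.25 to 1.97 for Orm1, 3.55 to 4.49 for Orm2 and 2.66 to 3.32 for Orm3.

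**Figure D1:**
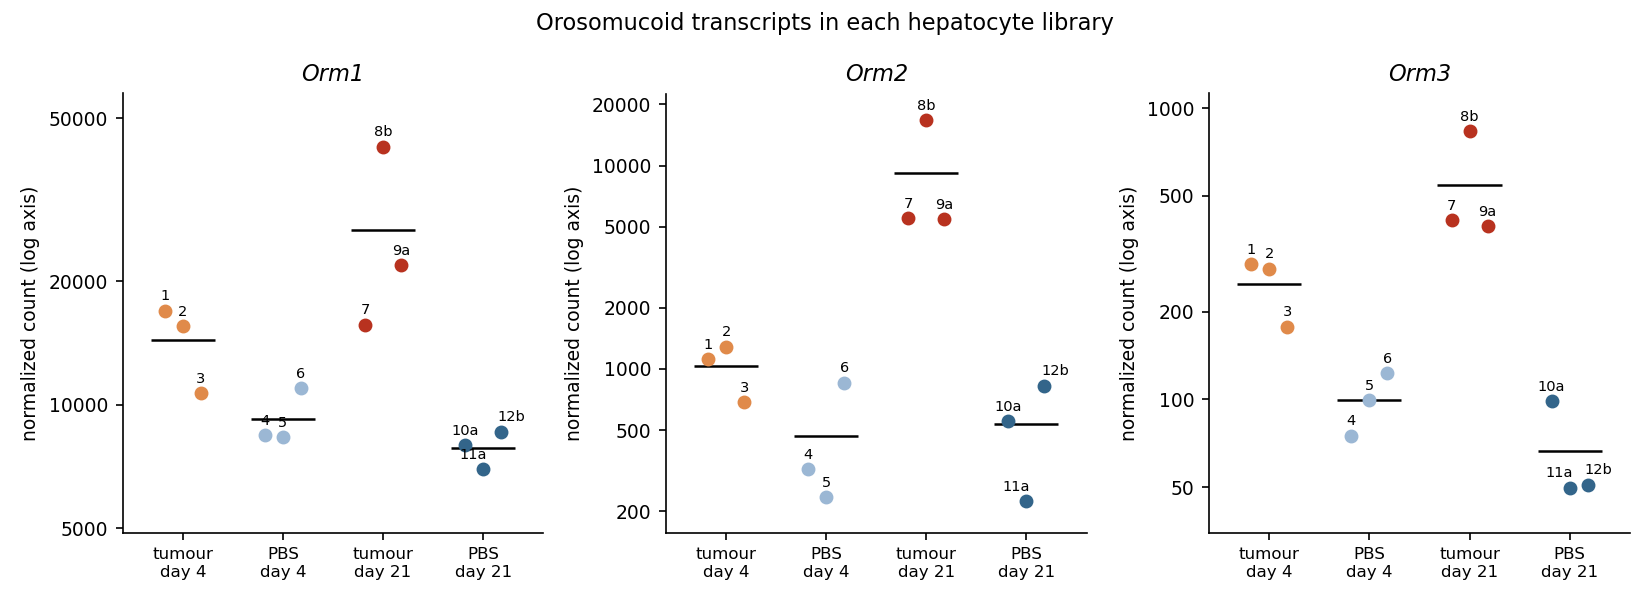
Normalized counts of Orm1, Orm2 and Orm3 (log axis) in each of the 12 libraries, by group, with points labelled by replicate and a line at the group mean. In all 3 panels the tumour day 21 libraries lie above every PBS library, and replicate 8b is the highest.

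At day 4 the tumour groups had higher means of all 3 genes, but none passed the test over all genes. Orm3 had 291, 281 and 178 normalized counts in tumour replicates 1, 2 and 3, against 75.1, 99.2 and 123 in PBS replicates 4, 5 and 6. All 3 tumour libraries lay above all 3 PBS libraries, which held for 4.53% of tested genes. The log2 fold change of Orm3 was 1.32 (95% interval 0.58 to 2.06), with a p of 27th rank among all genes and a limma adjusted p = 0.776. Orm1 had 16976, 15537 and 10669 normalized counts in tumour replicates 1, 2 and 3, against 8426, 8344 and 10969 in PBS replicates 4, 5 and 6. Tumour replicate 3 lay below PBS replicate 6, so the groups overlapped. The log2 fold change of Orm1 was 0.62 (95% interval -0.05 to 1.29, limma adjusted p = 0.818). Orm2 had 1114, 1289 and 688 normalized counts in tumour replicates 1, 2 and 3, against 322, 233 and 857 in PBS replicates 4, 5 and 6. The same libraries overlapped, and the log2 fold change was 1.31 (95% interval -0.05 to 2.67, limma adjusted p = 0.815).

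Of all tested genes 0% were called at day 4 in limma, while 761 had a raw p under 0.05. The edgeR fit gave 0 calls too, with 738 such genes, and DESeq2 gave 1 call upward and 2 downward, with 759. The orosomucoid intervals reach as high as 2.45-fold for Orm1, 6.36-fold for Orm2 and 4.18-fold for Orm3, so day 4 rises of these sizes lie within them.

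The tumour effect was larger at day 21 than at day 4 in value for each gene, and limma called none of these differences. The day 21 effect minus the day 4 effect was 2.77 for Orm2 (95% interval 0.85 to 4.69, limma adjusted p = 0.19), 1.69 for Orm3 (0.64 to 2.74, adjusted p = 0.141) and 1.02 for Orm1 (0.07 to 1.97, adjusted p = 0.335), all on the log2 scale. Over all genes 0.689% were called in this test by limma, and the edgeR fit gave 0 calls, with 1787 genes at a raw p under 0.05. DESeq2 called the difference for Orm3 (1.71, DESeq2 adjusted p = 0.0353) and for neither of the others, where it called 408 genes higher and 71 lower of the 12631 tested.

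The tumour groups of both days were also set side by side. Orm2 was called higher at day 21 than at day 4 of tumour growth (log2 fold change 3.00, 95% interval 1.64 to 4.35, limma adjusted p = 0.0111), 1 of 3 members where 10.5% of tested genes were called higher. Orm3 had 1.07 (0.33 to 1.81, limma adjusted p = 0.0537) and Orm1 0.79 (0.12 to 1.46, limma adjusted p = 0.106). The lowest day 21 library of Orm2 and of Orm3 lay above the highest day 4 tumour library, 2 of 3 members against 17.7% of genes, while Orm1 overlapped through day 21 replicate 7. Orm1 was called without that replicate (1.11, limma adjusted p = 0.0421) and in DESeq2 (0.90, DESeq2 adjusted p = 0.0255). Orm3 was called without tumour day 21 replicate 9a (1.26, limma adjusted p = 0.0458) or PBS day 21 replicate 10a (1.07, limma adjusted p = 0.0393), and in DESeq2 (1.13, DESeq2 adjusted p = 0.0141).

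Between PBS mice of day 21 and of day 4, none of the 3 genes was called and all groups overlapped. The log2 fold change was -0.23 for Orm1 (95% interval -0.90 to 0.44), 0.22 for Orm2 (-1.14 to 1.58) and -0.62 for Orm3 (-1.36 to 0.12), with limma adjusted p = 0.953, 0.970 and 0.938. Over all genes 0% were called in limma, with 504 at a raw p under 0.05. The edgeR fit gave 0 calls with 512 such genes, and DESeq2 0 upward and 5 downward with 589.

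**Figure D2:**
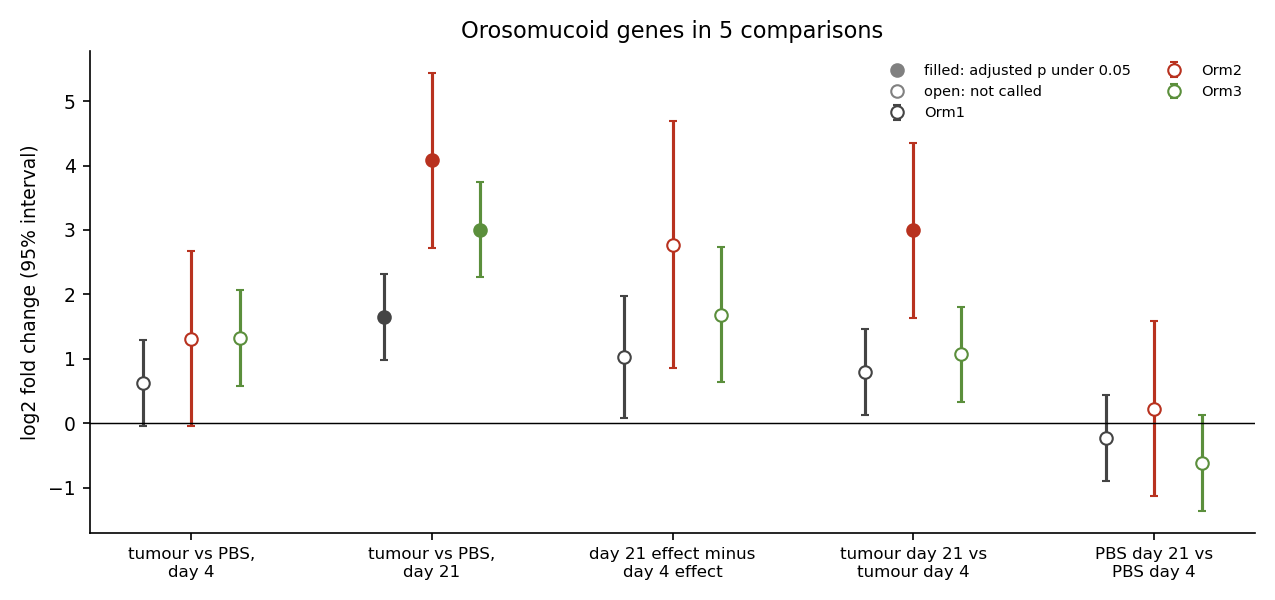
Log2 fold changes from limma on log2(value + 1), with 95% intervals, for the 3 genes in 5 comparisons of 3 libraries a group, filled where the adjusted p was under 0.05. All 3 genes are filled for tumour against PBS at day 21, none at day 4, and Orm2 (3.00) alone is filled for tumour day 21 against tumour day 4.

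The makeup of the family differed too. Orm2 held 25.5%, 27.9% and 19.6% of the orosomucoid reads in tumour day 21 replicates 7, 8b and 9a, against 6.42%, 3.09% and 8.72% in PBS day 21 replicates 10a, 11a and 12b. The 95% Wilson intervals, which cover counting error only, were 25.0% to 26.0%, 27.4% to 28.3% and 19.2% to 20.1% in these tumour libraries. In the other 9 libraries, tumour day 4 included, the Orm2 share lay between 2.69% and 8.72%. At day 4 Orm2 held 6.06%, 7.54% and 5.96% in tumour replicates 1, 2 and 3, against 3.65%, 2.69% and 7.17% in PBS replicates 4, 5 and 6, and the groups overlapped. The Orm1 share averaged 74.1% ± 4.30 in tumour and 93.1% ± 2.81 in PBS mice of day 21 (SD, n = 3 each). The Orm3 share averaged 1.57% ± 0.296 in tumour and 0.789% ± 0.315 in PBS mice of day 21, and 1.59% ± 0.0513 in tumour and 1.01% ± 0.147 in PBS mice of day 4.

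**Figure D3:**
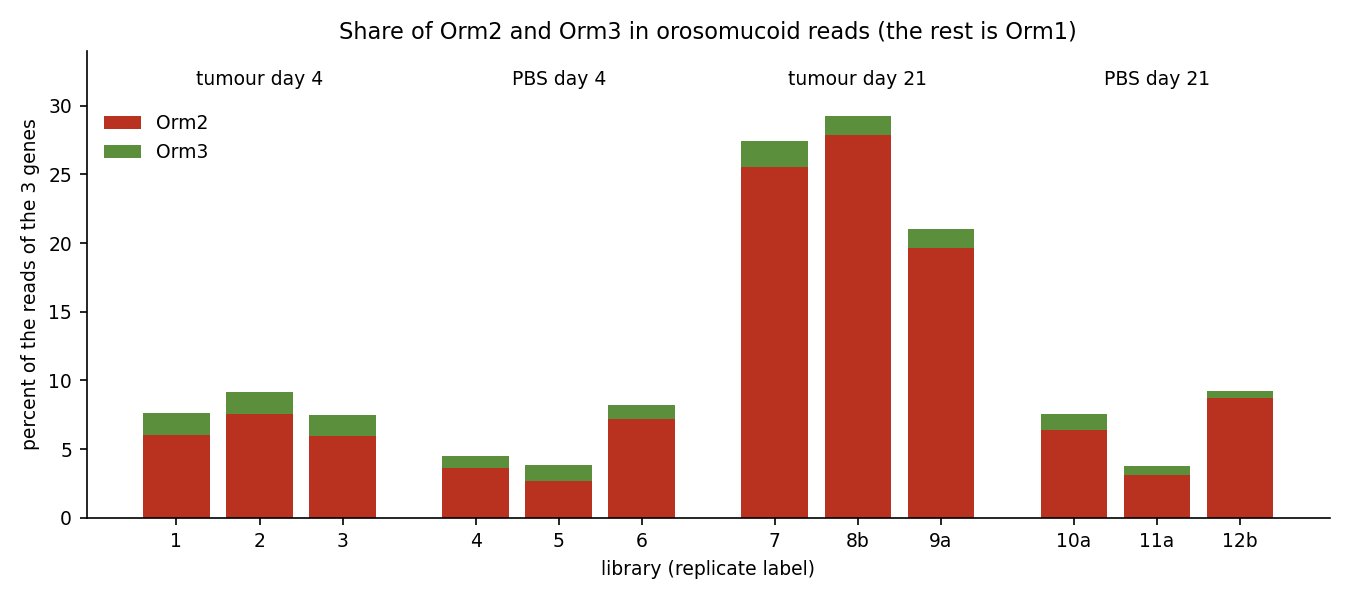
Percent of the reads of the 3 orosomucoid genes that fell on Orm2 (red) and Orm3 (green) in each library, with the remainder on Orm1. Orm2 takes 19.6% to 27.9% in the tumour day 21 libraries and at most 8.72% in the other 9 libraries.

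Apart from the 1 added to each value before log2, ratios within a library do not depend on its size factor. The log2 ratio of Orm2 to Orm1 averaged -1.62 ± 0.35 in tumour and -4.06 ± 0.81 in PBS mice of day 21, a difference of 2.44 or 5.42-fold. The ratio was higher in 3 of 3 tumour libraries than in any PBS library, and the exact two-sided permutation p = 0.1 is the smallest that 3 against 3 can give (0.15 adjusted over the 3 ratios). At day 4 it averaged -3.82 ± 0.20 in tumour and -4.51 ± 0.76 in PBS mice, with overlap (exact p = 0.3, adjusted 0.45). With labels permuted within each day, the difference over both days was 1.56 (exact p = 0.015, adjusted p = 0.0225). Whether the tumour effect on a ratio differed between days was not tested.
The log2 ratio of Orm3 to Orm1 averaged -5.57 ± 0.29 in tumour and -6.93 ± 0.54 in PBS mice of day 21, and -5.85 ± 0.06 in tumour and -6.54 ± 0.22 in PBS mice of day 4. All 6 tumour libraries had a higher ratio than all 6 PBS libraries. The difference over both days was 1.03, or 2.04-fold (exact p = 0.005, the smallest this permutation can give, adjusted p = 0.015). For Orm3 to Orm2 the differences were 0.01 at day 4 and -1.08 at day 21, and over both days -0.53 (exact p = 0.225), so a change in that ratio was not detected, though the PBS spread of 0.99 on the log2 scale at day 21 leaves it poorly measured.

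The genes also varied differently among PBS mice. The highest PBS library of Orm2 was 3.67 times the lowest at day 4 and 3.70 times at day 21, against 1.31 and 1.24 times for Orm1 and 1.64 and 1.98 times for Orm3. Among tumour mice of day 21 the highest library was 3.08 times the lowest for Orm2, 2.72 times for Orm1 and 2.12 times for Orm3. Replicate 6 was the highest PBS library of day 4 for all 3 genes. At day 21 the highest PBS library was 12b for Orm1 and Orm2 and 10a for Orm3. The suffixes a and b of the day 21 labels are not explained in the sources used here, and 8b and 12b were the highest libraries of their groups for Orm1 and Orm2.

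The genes whose pattern over the 12 libraries was most like each member were found by correlation. By Pearson correlation of log2(value + 1) among tested genes, Orm1 was nearest to Hpx, the haem binder hemopexin (0.969), Itih4, an inter-alpha-trypsin inhibitor heavy chain (0.968), Hp, the haemoglobin binder haptoglobin (0.962), and the protease inhibitor Serpina10 (0.958). Orm2 was nearest to Saa1, a serum amyloid A (0.964), Apcs, serum amyloid P (0.957), Saa2 (0.956) and Hp (0.951). Orm3 was nearest to Lrg1, a leucine-rich glycoprotein (0.965), Lcn2, the siderophore-binding lipocalin 2 (0.959), Itih4 (0.940) and Hp (0.939). Between members the value was 0.938 for Orm3 and Orm1, 0.924 for Orm2 and Orm1, and 0.886 for Orm3 and Orm2. These 12 points share 4 groups, and tumour day 21 lies far from the rest, so the values are a description that the group distances feed. With group means removed they were 0.751, 0.783 and 0.657 for the same pairs.

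The 4 nearest genes of each member were also found with group means removed. They are the highest of 12631 tested genes over 12 libraries, so the values only describe that choice and were not tested. For Orm2 they were Bpgm (0.919), Saa2 (0.910), Saa1 (0.901) and Mppe1 (0.890), for Orm1 Bbs10 (0.967), Tuft1 (0.928), Rexo2 (0.920) and Apcs (0.915), and for Orm3 Hist1h1c (0.904), 2810402E24Rik (0.9), Gpr146 (0.888) and Tuft1 (0.857). Of these, Saa1, Saa2 and Apcs were also among the 4 nearest to Orm2 over the libraries as measured, and limma called none of the others at day 21. Saa2 had 8856, 42654 and 17445 normalized counts in tumour day 21 replicates 7, 8b and 9a, against 1162, 89.7 and 1657 in PBS day 21 replicates 10a, 11a and 12b.

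The other genes of the response were taken from lists chosen with earlier results of these data known, and are given by counts. Type 1 acute-phase genes, which respond to IL-1 and IL-6 together, counted 9 genes higher and 0 lower by limma among 12 at day 21, with a median log2 fold change of 1.77 (median of all tested genes 0.02). Among all tested genes, 5.42% were called higher at day 21. The serum amyloid genes Saa1 (4.51), Saa2 (5.07), Saa3 (1.92) and Saa4 (1.55) all rose, at limma adjusted p = 0.0225, 0.0201, 0.0186 and 0.00466. The complement genes C3 and Cfb had 0.63 and 0.36 and Crp, C-reactive protein, 0.16, and were not called (limma adjusted p = 0.125, 0.237 and 0.713). Saa1 and Saa2 are near-identical copies whose reads may have been split. Type 2 genes, which respond mainly to IL-6, had 9 of 12 called higher and 0 lower with a median of 1.24. The fibrinogen chains Fga, Fgb and Fgg rose by 1.30, 1.16 and 1.17 and the fibrinogen-like Fgl1 by 1.94 (limma adjusted p = 0.0173, 0.0298, 0.0274 and 0.00543). The type 1 count was 6 without tumour day 21 replicate 8b and 6 in a fit of the day 21 libraries alone. The type 2 count was 6 without replicate 8b and 4 in the fit of the day 21 libraries alone. It was 5, 5 and 4 without PBS day 21 replicates 10a, 11a and 12b. At day 4 both lists had 12 of 12 positive log2 fold changes and 0 called in limma, with medians of 0.67 for type 1 and 0.56 for type 2. Of all tested genes, 45.4% had a positive log2 fold change at day 4. Orm1 lay near the type 1 median at day 21, Orm3 above it, and Orm2 below Saa1, Saa2 and Lcn2 among the values of that list.

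Other secreted lipocalins, relatives of orosomucoid by fold, did not share one direction. Of 9 tested, 2 had positive and 7 negative log2 fold changes at day 21. Lcn2 was called higher (6.0, limma adjusted p = 0.000832), and it is also a neutrophil granule gene. Ptgds, prostaglandin D synthase, and the major urinary proteins Mup3 and Mup20 were called lower at day 21 (-2.25, -1.74 and -1.08, limma adjusted p = 0.00794, 0.0276 and 0.0159). Rbp4, the retinol carrier, Apom, a lipoprotein lipocalin, Ambp, which encodes alpha-1-microglobulin, and C8g, a complement subunit, had -0.50, -0.20, 0.57 and -0.66 and were not called. Of 9 tested lipocalins, 1 was called higher and 3 lower, with a median of -0.66. Among all 12631 tested genes limma called 684 higher and 308 lower. The called number of lipocalins was 2 without PBS day 21 replicate 11a or 12b, and 1 in a fit of the day 21 libraries alone. Major urinary protein genes are many and near-identical, so their counts are uncertain.

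Of 18 receptor, signalling and transcription factor genes named for orosomucoid control, 5 were called higher and 0 lower at day 21 (median 0.33). Among all tested genes, 5.42% were called higher. Stat3, the IL-6 signal factor, had 1.23 and Il6st, the signal-carrying IL-6 receptor chain, 0.95 (limma adjusted p = 0.000569 and 0.00866). The IL-1 receptor Il1r1 had 1.70, the IL-1 receptor antagonist Il1rn 1.64 and the C/EBP delta gene Cebpd 2.29 (limma adjusted p = 0.0490, 0.0319 and 0.0421). Which cells the transcripts of these 5 called genes came from was not tested. Cebpa and Cebpb, also C/EBP genes of this list, had -0.50 and 0.33 and Nr3c1, the glucocorticoid receptor, -0.04 (limma adjusted p = 0.377, 0.766 and 0.897). Il6ra, Socs3, Jak1 and Jak2 of the IL-6 pathway had 0.89, 1.34, 0.38 and 0.33 and were not called. The IL-1 receptor accessory gene Il1rap had -0.51, the NF-kappa-B genes Nfkb1, Nfkbia and Rela 0.29, 0.22 and -0.05, and the hepatocyte factor Hnf4a 0.03, none called. The called number was 2 without tumour day 21 replicate 7 or 8b or PBS day 21 replicate 11a or 12b, and 3 without PBS day 21 replicate 10a or tumour day 4 replicate 3. It was 2 with eBayes without trend and robust, and 3 with a mean of at least 50.

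Glucocorticoid targets had 2 of 11 called higher and 1 lower at day 21 (median 0.21). Of all 12631 tested genes, limma called 684 higher and 308 lower. Tsc22d3, Fkbp5, Per1 and Sgk1, widely used indicators of glucocorticoid action, had 0.32, 1.15, 0.49 and -0.19 (limma adjusted p = 0.571, 0.261, 0.285 and 0.829). The metallothioneins Mt2 and Mt1, which also respond to zinc and IL-6, were higher by 4.16 and 2.4 (limma adjusted p = 0.000705 and 0.0179). The phosphatase gene Dusp1 fell by 1.0 (limma adjusted p = 0.0409). The called number was 1 without PBS day 21 replicate 11a or 12b. Enzymes that attach and extend N-glycans, which orosomucoid carries in number, had 2 of 16 called higher and 0 lower (median 0.14), beside 5.42% called higher among all tested genes, so the count is given as values only. These were Mgat5, the branching transferase, at 1.43 and the galactosyltransferase B4galt1 at 0.97 (limma adjusted p = 0.0041 and 0.0069), while the oligosaccharyltransferase subunits Stt3a, Stt3b, Rpn1 and Rpn2 had 0.15, 0.08, 0.31 and 0.20 and were not called. In each of these lists 0 members were called at day 4 in limma.

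**Figure D4:**
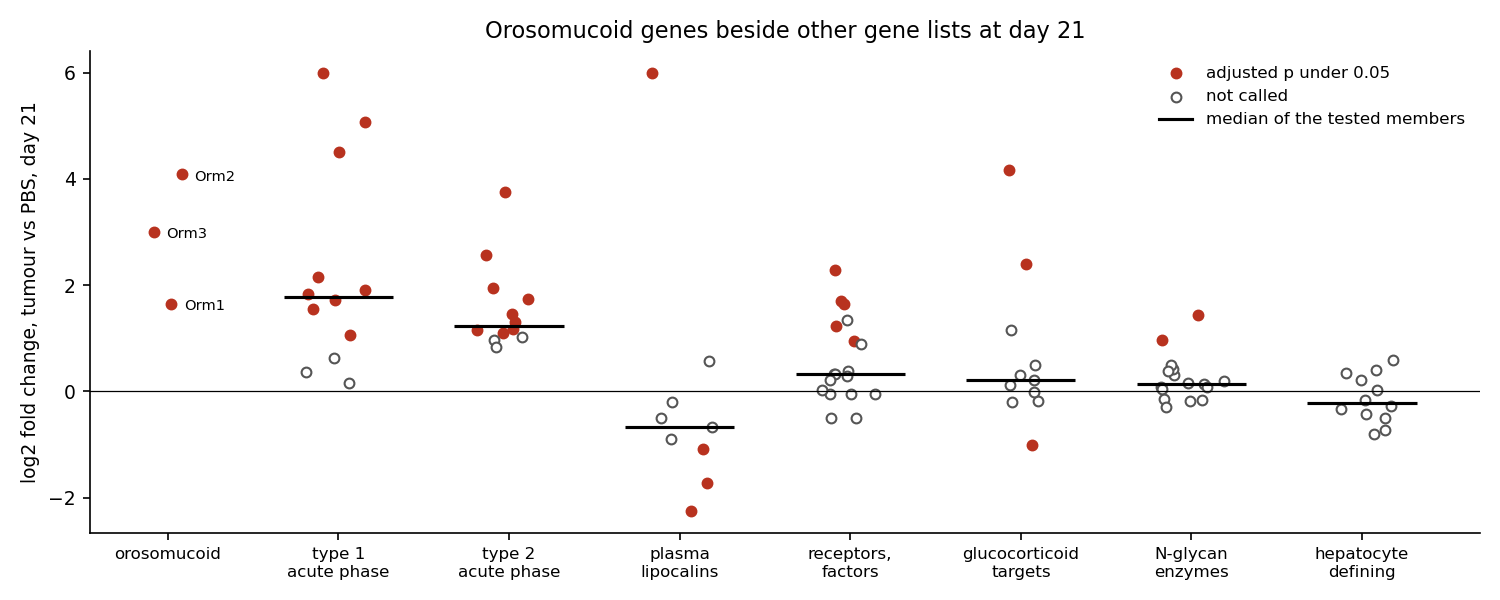
Log2 fold changes from limma on log2(value + 1), tumour against PBS at day 21, of the orosomucoid genes and the tested members of 7 lists, red where the adjusted p was under 0.05 and with a line at each list median. Orm2 (4.08), Orm3 (3.01) and Orm1 (1.65) lie among the acute-phase genes. The other lipocalins fall on both sides of 0, with 2 above it and 7 below.

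Tested markers of neutrophils, immature myeloid cells and monocytes were also higher in tumour than in PBS mice at day 21. For comparison, limma called 5.42% of all tested genes higher at day 21. The 15 tested neutrophil markers were all called higher in limma, with a summed normalized count of 21160 to 91110 in tumour and 100.2 to 425 in PBS mice. Ly6g, Retnlg and Cd177 of that list were at 0 in all 3 PBS libraries of day 21, as was 1 of 2 identifiers named Itgam. Of immature myeloid markers 7 of 7 tested were called higher, with sums of 6194 to 31440 in tumour and 3.5 to 8.17 in PBS mice and Ms4a3, Cebpe and Chil3 at 0 in the PBS libraries. Most of these genes passed the filter on low values only through the tumour libraries. Of Kupffer cell markers 2 of 12 were called higher, with sums of 6320 to 29470 in tumour and 4649 to 6644 in PBS mice. All 12 had positive log2 fold changes (median 1.24), where 51.9% of all tested genes did. The number called was 1 without tumour day 21 replicate 7 or 9a, any PBS day 21 replicate, tumour day 4 replicate 3 or PBS day 4 replicate 4. Of monocyte markers 5 of 7 tested were called higher, with sums of 46860 to 63180 in tumour and 32710 to 35490 in PBS mice, which Fn1, also a hepatocyte gene, feeds. Among tested markers of other cells, limma called 0 of 10 for sinusoidal endothelium, 1 of 9 for stellate cells, 1 of 2 for cholangiocytes, 1 of 3 for lymphoid cells and 0 of 4 for erythroid cells. The erythroid median was 3.62, with 3 of 4 at a raw p under 0.05, and 2 were called without tumour day 4 replicate 2 or 3 and in DESeq2. The cholangiocyte count was 0 when replicate 4, 7, 8b, 9a, 10a, 11a or 12b was left out, and the stellate count 0 when replicate 7, 10a or 12b was. The endothelial count was 1 without tumour day 21 replicate 8b. In order of replicates 7, 8b and 9a the neutrophil sum was 91110, 40500 and 21160, and the summed orosomucoid count was 21590, 60220 and 27760. Replicate 7 therefore held the most neutrophil transcript and the least orosomucoid transcript of the tumour day 21 libraries. In the same order the sum of the hepatocyte-defining genes was 1532000, 1883000 and 2068000, so it too was lowest in replicate 7. Whether this bears on the orosomucoid count of replicate 7 was not tested. Without replicate 7 the day 21 log2 fold changes were 1.97 for Orm1, 4.35 for Orm2 and 3.16 for Orm3, all called in limma (adjusted p = 0.00316, 0.012 and 0.00175). At day 4 the neutrophil sum was 996 to 3947 in tumour and 346 to 448 in PBS mice, with 0 markers called in limma. The part of these cells in the orosomucoid counts was not tested beyond these values.

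**Figure D5:**
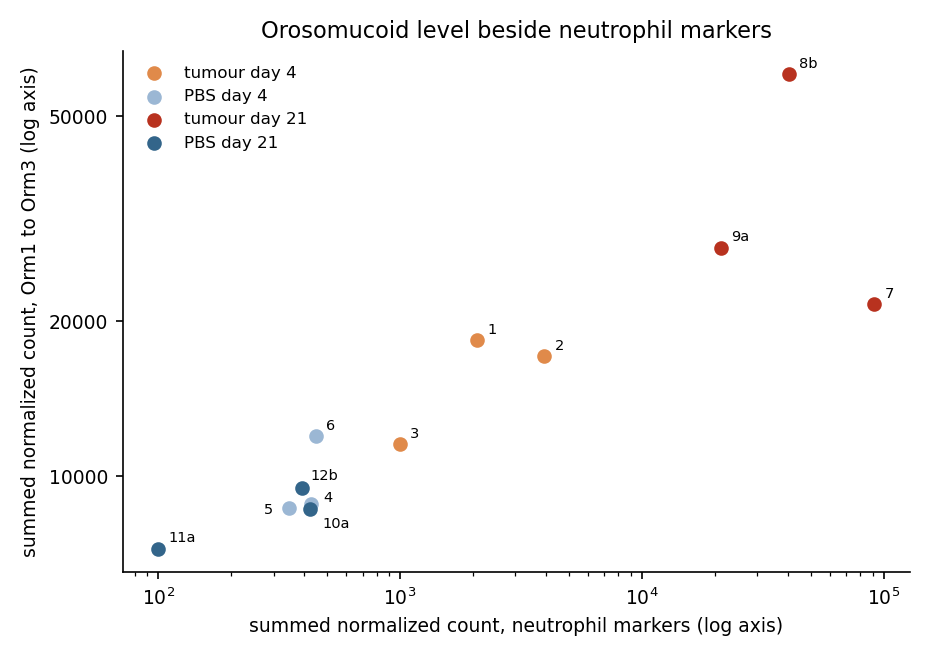
Summed normalized count of Orm1, Orm2 and Orm3 against that of the neutrophil markers (both log axes) in each library, labelled by replicate. Tumour day 21 replicate 7 has the highest neutrophil sum (91110) and the lowest orosomucoid sum of its group (21590).

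Genes around the cluster were examined within 250 kb on either side. Of 15 annotated neighbours 7 were in the table, 6 were tested, and 2 were called higher at day 21 and 0 at day 4, beside 5.42% and 0% of all tested genes. Akna, an AT-hook factor of immune cells that lies 1247 bases beyond Orm2 on the minus strand, had 392, 69.8 and 86.3 normalized counts in tumour replicates 7, 8b and 9a, against 20.9, 19.6 and 13.6 in PBS replicates 10a, 11a and 12b (log2 fold change 2.84, limma adjusted p = 0.0101). Its highest library was replicate 7, where the neutrophil sum was highest and the orosomucoid sum lowest of the group. Which cells the Akna transcript came from was not tested. Tmem268, a membrane protein gene 192903 bases away, had 292, 286 and 227 normalized counts in the same tumour libraries, against 99.4, 66.6 and 71.7 in the PBS libraries (1.76, limma adjusted p = 0.00312). Col27a1, the nearest gene on the Orm1 side at 9569 bases, had -0.17 (limma adjusted p = 0.868). Ambp, Whrn and Atp6v1g1 had 0.57, 0.62 and 0.34 (limma adjusted p = 0.139, 0.456 and 0.152), and Zfp618 had too few counts to be tested.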

How the data were processed

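The authors deposited 1 table of normalized counts, per the file headers, a signal in which each library's gene counts were scaled by one size factor and not by gene length. The submitters' processing notes name cutadapt, STAR 2.4.2a, HTSeq, DESeq2 and the build GRCm38. Their roles, the annotation, the strand setting and the read length were not given in the sources used here. At least 99.994% of each library's values were within 0.1 of a whole number of reads after division by the library's step.

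A gene was tested when its mean over all libraries reached 10, which left 12631. Limma 3.58.1 (R 4.3.3; eBayes with trend and robust) was fitted to log2(value + 1) with 1 mean per group, which understates changes of low genes, and p-values were adjusted by Benjamini-Hochberg over all tested genes. EdgeR 4.0.16 (quasi-likelihood) and DESeq2 1.42.0 on the recovered reads were alternatives; they called 886 and 1195 genes higher and 351 and 583 lower at day 21, against 684 and 308 in limma. The fits were tested on simulated data. Mice were the replicates.

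The members and the 17 gene lists were chosen with earlier results of these data known. Named were the members, the 4 most correlated genes of each, neighbours within 250 kb, and of each list the first 4 members plus those against its direction. C3, Cfb, Crp, Ptgds, Mup3, Mup20, Mt1, Mt2, Mgat5, B4galt1, Fn1 and the marker genes at 0 were added after their values were seen. The value of 1 list member is not reported here. Of 15910 gene identifiers 15892 matched GENCODE M21. Promoters came from RefSeq (GRCm38.p6), which held 2 of the 3 members. Wilson intervals cover counting error only.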

Additional observations from a re-analysis of the deposited data

How the results depend on the processing

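The day 21 calls of Orm1, Orm2 and Orm3 kept their direction and side of the threshold in all 21 alternatives (pseudocounts of 0.5 and 5, no filter, a mean of at least 50, TMM scaling, edgeR, DESeq2, eBayes without trend and robust, the compared groups alone, and each library left out), with adjusted p up to 0.0491 for Orm1. At day 4 none was called in any of them. For tumour day 21 against tumour day 4, Orm3 was called with a pseudocount of 5 (1.06, limma adjusted p = 0.0492), without the filter (1.07, limma adjusted p = 0.0497) and in DESeq2 (1.13, adjusted p = 0.0141), and its values ran from 0.72 to 1.26 with single libraries left out. Orm1 was called in DESeq2 (0.90, adjusted p = 0.0255), and ran from 0.39 to 1.11. DESeq2 called the difference of effects for Orm3 (1.71, adjusted p = 0.0353). Values near 0 changed sign: Orm2 in PBS day 21 against PBS day 4 ran from -0.19 to 0.77, turning without PBS day 4 replicate 5 or PBS day 21 replicate 12b, and the Orm3 to Orm2 ratio at day 4 ran from -0.37 to 0.41 and was -0.0154 with a pseudocount of 5. The cause was not tested. No paired analysis was possible because the groups share no replicate numbers, and the suffixes a and b of some day 21 labels are not explained. With 3 mice a group, exact tests within a day cannot reach 0.05.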
